A study of Rattus norvegicus with 12 samples.

Results

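Mitochondria captured on magnetic beads (the IP_RNase group, 3 libraries) were compared with crude mitochondria (the crude_RNase group, 3 libraries), across all genes of the deposited table. The 6 libraries were chosen by their titles from the 12 of the series, and the other 6 entered only the filter on low counts, the scaling and the estimate of the spread between libraries. All came from hindlimb muscle of 1 wild-type male Wistar Kyoto rat, 14 weeks old, while the series' design text names the gastrocnemius. The homogenate of that muscle was pooled and divided, so the libraries of a group are aliquots of 1 animal and the errors and p-values below measure only the spread between aliquots, which may be technical. Crude mitochondria had been pelleted by differential centrifugation and captured mitochondria pulled down on magnetic beads. The material on both sides had been treated with RNase A, and neither group had received proteinase K or lost its outer membrane on purpose. Crude libraries were made from 6.3 ng of RNA and captured libraries from 40 ng, so the isolation method and the RNA input cannot be told apart. The source and tissue labels of the crude samples name immunoprecipitation, and the grouping here follows their titles and the design text. The labels do not say what the beads recognise.

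A skeletal muscle fibre packs its mitochondria between myofibrils and against the sarcoplasmic reticulum, the membrane store of calcium. Differential centrifugation sorts organelles by size and density and also pellets fragments of reticulum, myofibrils and nuclei, whereas beads retain what carries the captured surface. The mitochondrial genome encodes a handful of respiratory chain subunits with the rRNAs and tRNAs to translate them, and these RNAs lie behind both mitochondrial membranes. Nearly all other mitochondrial proteins are translated from nuclear messages on cytosolic ribosomes, some of them at the outer membrane. RNase A cleaves single-stranded RNA that it can reach, and RNA behind an intact membrane or held in a protein complex is less accessible to it.

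Captured libraries held 3603514, 3325430 and 3911630 gene counts, and crude libraries 6583452, 7123045 and 6764447. The median nuclear gene had 70 to 76 raw counts in the captured libraries and 63 to 78 in the crude ones. The median gene of the olfactory receptors, odorant sensors that muscle does not normally transcribe, had 37 to 44 and 30 to 34 counts. The spread among aliquots exceeded sampling noise, since the chi-square per degree of freedom was 2.02 to 7.31 among captured libraries and 4.43 to 12.1 among crude ones. A few genes were carried by a single library: among genes with a mean of at least 50 counts over the 6 libraries, 8 had a highest library of a group more than 3 times the next in CPM. The captured library 3 was the high one for 5 of them (copies of the signal recognition particle RNA, a 28S gene and 2 unnamed mitochondrial genes), crude library 2 for Ttn and a copy of the signal recognition particle RNA, and crude library 3 for Rn7sl1. Values that rest on these libraries are given below with and without them.

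Of 26483 genes tested, 1684 passed at an adjusted p of 0.05 (6.36%), by edgeR's quasi-likelihood test with Benjamini-Hochberg adjustment. There were 1349 lower in captured mitochondria (5.09% of all genes tested) and 335 higher (1.26%). The median gene had a log2 fold change of 0.007, captured minus crude. Lower genes had a median of -0.607 and 337 of them lay beyond -1. Higher genes had a median of 0.506, 43 lay beyond 1, and 4 of those 43 had a mean of at least 50 counts. The number of rises moved with single libraries, to 145 without captured 1 and to 506 without crude 2.

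These directions are relative to TMM scaling, which sets the bulk of nuclear genes level. The share of calls that were rises was 19.9%, and it was 99.3% with scaling to library size, 1.26% with scaling on olfactory receptor genes and 99.9% with scaling on the 13 mitochondrial mRNAs. Those scalings moved the median of all genes by 1.024, -0.216 and 3.807 on the log2 scale. Every gene group below is therefore described relative to the median gene of the same scaling. A scaling shifts all genes nearly alike, so list medians read that way could hardly differ between scalings, and their agreement there is no support. Under every scaling and edgeR alternative run, leaving out a library included, the median of each list kept its sign (list medians were not computed with DESeq2). Exceptions were 7 lists near 0: the RNase P, spliceosomal, small nucleolar and miRNA lists and the endothelial, erythroid and satellite cell lists. In bulk preparations fewer copurified particles and less RNA in each particle cannot be told apart.

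In percentage points the make-up of the libraries differed most in the mitochondrial share. Genes of the mitochondrial chromosome took 5.27%, 3.33% and 10.9% of the counts of captured libraries and 41.2%, 53.3% and 54.0% of those of crude libraries. Every crude library stood above every captured one, and captured 3 was the highest of its group. Nuclear protein-coding genes took the place of these counts, with 74.9%, 77.5% and 71.3% in captured and 46.4%, 36.1% and 35.7% in crude libraries. Within the nuclear counts alone they differed little, at 79.0%, 80.1% and 80.0% against 78.9%, 77.3% and 77.5%.

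Among nuclear counts the 2 preparations still differed in kind. Nuclear-encoded rRNA, the RNA of cytosolic ribosomes, took 0.0711%, 0.0788% and 0.1% of nuclear counts after capture and 3.92%, 4.7% and 4.7% in crude pellets. RNA of the signal recognition particle, which brings ribosomes to the endoplasmic reticulum, took 0.0113%, 0.0118% and 0.016% against 0.209%, 0.369% and 0.349%. Messages of cytosolic ribosomal proteins took 0.161%, 0.159% and 0.161% against 0.473%, 0.532% and 0.507%. Contractile messages took 0.661%, 0.657% and 0.803% against 1.6%, 3.4% and 1.86%. Ttn alone took 1.58% of nuclear counts in crude 2, and 0.257% and 0.38% in crude 1 and 3. As a share of all counts the contractile difference was -0.468 points, and -0.239 without crude 2. In all 4 classes the lowest crude library stood above the highest captured one. Olfactory receptor genes went the other way, with 1.84%, 1.65% and 1.67% of nuclear counts in captured and 1.26%, 1.42% and 1.37% in crude libraries. For each of 8 classes compared as shares of all counts the groups did not overlap, and the two-sided exact permutation p was 0.1, the smallest that 3 libraries against 3 allow (adjusted p = 0.1 over the 8). PCR copies are not independent molecules, so none of these shares carries more precision than its spread between aliquots.

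**Figure D1:**
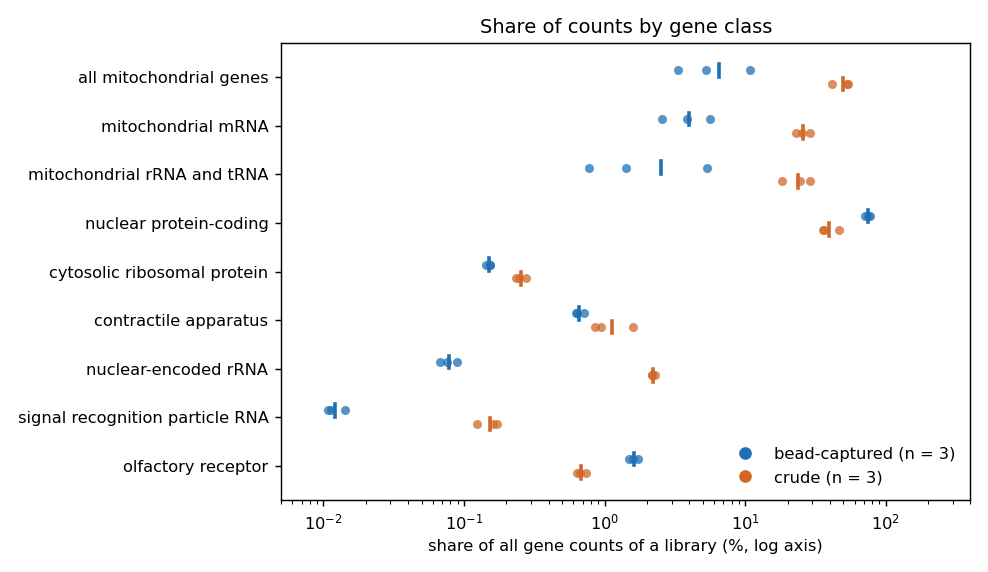
Share of all gene counts of a library (%, log axis) taken by each gene class, with 1 point per library and a bar at the mean of each group of 3. Mitochondrial, rRNA, signal recognition particle, ribosomal protein and contractile classes sit higher in all crude libraries, and nuclear protein-coding and olfactory receptor classes in all captured ones.

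The shares of 6 of the 13 mitochondrial mRNAs did not overlap between the groups, though 3 libraries against 3 could not pass the test. With scaling on the 13 mRNAs, edgeR called 1 of them higher and 0 lower. Mt-co1, a catalytic subunit of cytochrome c oxidase, made up 13.7%, 13.9% and 16.1% of the counts of the 13 mRNAs in captured libraries and 18.7%, 18.0% and 19.2% in crude libraries. Its share was lower in all 3 captured libraries, a difference of -4.06 points between means of 14.6% ± 1.31 and 18.6% ± 0.627 (SD, n = 3 each). Taken as a share of all mitochondrial counts instead, rRNA and tRNA genes included, the difference was -0.0656 points. Mt-nd2, a complex I subunit, had the larger share after capture, 12.6% ± 0.593 against 10.5% ± 0.14 (SD, n = 3 each).

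The largest ratios of share were those of Mt-nd6, Mt-nd4l and Mt-atp8, while Mt-nd3, also a minor message, had a ratio of 0.983 (0.643% against 0.655%). Mt-nd6, which encodes a complex I subunit on the strand opposite to the rest, made up 2.72%, 2.37% and 2.61% in captured and 1.63%, 1.81% and 1.91% in crude libraries, a ratio of 1.44 between the means. Mt-nd4l, another complex I subunit, had the same ratio of 1.44, at 0.955% ± 0.0238 against 0.665% ± 0.0347 (SD, n = 3 each). Mt-atp8, an ATP synthase subunit, made up 0.0635%, 0.0564% and 0.0696% against 0.037%, 0.0308% and 0.0292%, a ratio of 1.95. Its raw counts were 88, 48 and 152 after capture, around those of the median nuclear gene, and 558, 633 and 498 in crude libraries. Whether strand was used in counting is not stated, so Mt-nd6 may include reads of the other strand. A different limit holds for the overlapping pairs Mt-atp8 with Mt-atp6 and Mt-nd4l with Mt-nd4, which share a strand. Their counts depend on how reads that fall on both genes were assigned. The 6 mRNAs whose shares did not overlap, Mt-co1, Mt-co3, Mt-nd2, Mt-nd6, Mt-nd4l and Mt-atp8, each had an exact permutation p of 0.1 (adjusted p = 0.217 over the 13). The shares of the other 7 overlapped between the groups, with ratios of 0.981 to 1.08.

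**Figure D2:**
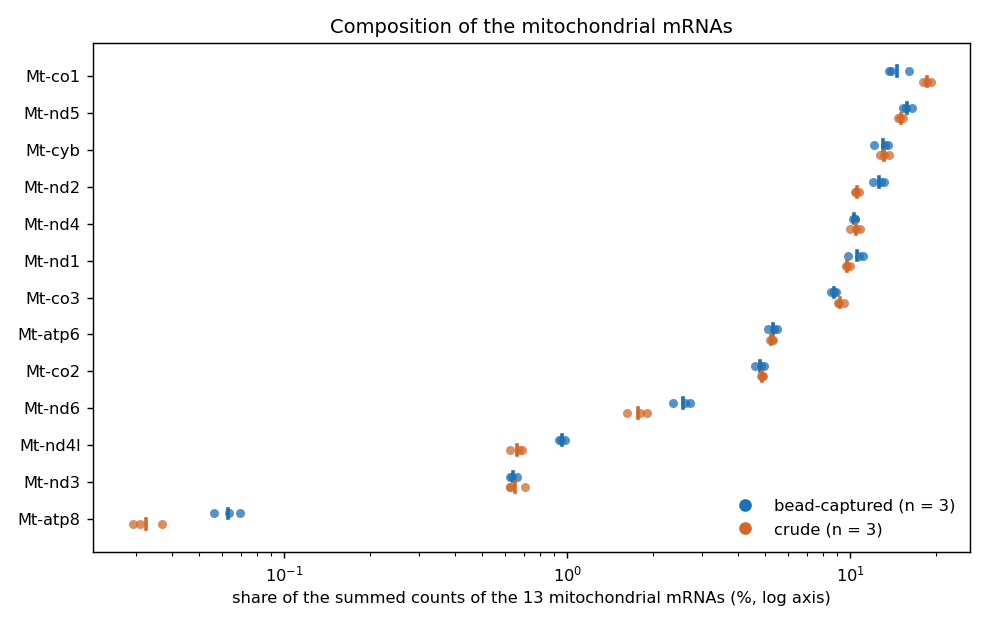
Share of each mRNA in the summed counts of the 13 mitochondrial mRNAs (%, log axis), with 1 point per library and a bar at the mean of each group of 3. Mt-nd6, Mt-nd4l and Mt-atp8 lie further right in all captured libraries, Mt-co1 and Mt-co3 further left.

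Against nuclear genes, each of the 13 mRNAs fell by more than 2.6 on the log2 scale. Mt-cyb, the mitochondrial subunit of complex III, had 18495, 11562 and 26535 raw counts in captured and 206312, 268469 and 216419 in crude libraries, a log2 fold change of -3.75 ± 0.221 (SE, edgeR adjusted p = 1.61e-20). Captured 2 was the lowest library and captured 3 the highest of its group, and the groups were far apart. Mt-nd5 was at -3.63 ± 0.241 and Mt-co2 at -3.75 ± 0.201.

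The 2 most counted genes of the mitochondrial chromosome carry no name in the table beyond AY172581.24 (ENSRNOG00000043866) and AY172581.9 (ENSRNOG00000030478). The 37 mitochondrial genes are the 13 mRNAs and 24 without a name, which hold the rRNA and tRNA genes. The 2 most counted of the 24 were taken as the rRNA genes and the other 22 as the tRNA genes, by level and not by a label. The libraries had been depleted of rRNA, so their level and their ratio to the mRNAs may depend on that step, which was not tested. AY172581.24 had 30509, 15670 and 117777 raw counts after capture and 706067, 1056385 and 1182944 in crude libraries. The captured libraries were all below the crude ones, but captured 3 held 3.79 times the scaled level of the next captured library for AY172581.24 and 4.34 times for AY172581.9. Without captured 3 the log2 fold changes of AY172581.24 and AY172581.9 went from -4.35 and -4.17 to -5.55 and -5.54. Per count of the 13 mRNAs, the counts of both genes together were 0.369, 0.302 and 0.955 in captured and 0.797, 0.849 and 1.14 in crude libraries, so that captured 3 fell within the crude range and captured 1 and 2 below it. The ratio of AY172581.24 to AY172581.9 was 1.3 to 1.57 in captured and 1.42 to 1.56 in crude libraries. The 22 genes taken as tRNA genes held 197, 102 and 300 counts after capture and 1291, 2904 and 3256 in crude libraries, most of them on AY172581.2.

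Messages of the contractile apparatus were lower after capture, and the fast-twitch isoforms more so than the slow ones. Of 16 thin filament genes 14 fell and 0 rose (median -0.95), and of 16 thick filament genes 12 fell and 0 rose (median -0.82). Of 28 genes of the Z-disc and of titin partners 24 fell and 0 rose (median -0.94), beside 5.09% of all genes lower. Acta1, the actin of adult skeletal muscle, had 92, 91 and 162 raw counts in captured and 6842, 7102 and 6531 in crude libraries. All captured libraries were far below all crude ones, with a log2 fold change of -6.01 ± 0.122 (SE, edgeR adjusted p = 5.41e-41). Tcap, the titin cap protein of the Z-disc, had 45, 43 and 46 counts against 723, 690 and 579, a fold change of -4.00 ± 0.106 (edgeR adjusted p = 3.17e-36). Des, the intermediate filament that links Z-discs, had 181, 175 and 180 against 679, 722 and 580 (-2.0 ± 0.09, edgeR adjusted p = 1.55e-25). Actc1, the cardiac actin, stood at -0.20, and the developmental myosins Myh3 and Myh8 at 0.00 and 0.09; none of these 3, named for their place in the families, passed.

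All 11 fast isoforms tested fell, beside 5.09% of all genes, with log2 fold changes from -4.67 to -1.52 and a median of -2.87. Of 10 slow isoforms 9 fell, with values from -1.06 to -0.45, and Casq2, the slow and cardiac calsequestrin, did not pass at 0.02 (median of the 10, -0.79). For troponin C, the calcium sensor, the count ratio of the fast Tnnc2 to the slow Tnnc1 was 0.963, 0.702 and 1.08 in captured and 10.1, 11.3 and 8.25 in crude libraries. For the regulatory light chain, Mylpf per Myl2 was 0.541, 0.317 and 0.421 against 7.03, 8.93 and 7.33. For the heavy chain, Myh4 per Myh7 was 2.29, 1.6 and 2.19 against 7.81, 7.64 and 8.11. The crude ratio was the higher in every library for these 3 pairs.

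A further 7 pairs also showed no overlap between the groups. They were troponin I (Tnni2 per Tnni1, mean 0.86 against 8.18), troponin T (Tnnt3 per Tnnt1, 2.01 against 11.7), the essential light chain (Myl1 per Myl3, 0.665 against 7.07), calsequestrin (Casq1 per Casq2, 1.03 against 3.55), the myozenins (Myoz1 per Myoz2, 1.96 against 3.6), the actinins (Actn3 per Actn2, 0.838 against 2.74) and the creatine kinases (cytosolic Ckm per mitochondrial Ckmt2, 0.617 against 2.62). These ratios are of counts not corrected for length, so they compare the 2 preparations and not the isoforms of a pair, and they were not tested. The level of the genes moved with the result: in crude libraries the fast genes had means of 123 (Myoz1) to 1545 (Myh4) CPM, counts scaled to an effective library size of 1000000, and the slow genes 34.5 (Myoz2) to 197 CPM (Myh7). After capture the fast genes had 15.9 (Mylpf) to 211 CPM (Myh4) and the slow genes 16.5 (Myoz2) to 105 CPM (Myh7), beside 21.4 to 21.5 CPM for the median nuclear gene. The part of that level in the ratios was not tested.

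**Figure D3:**
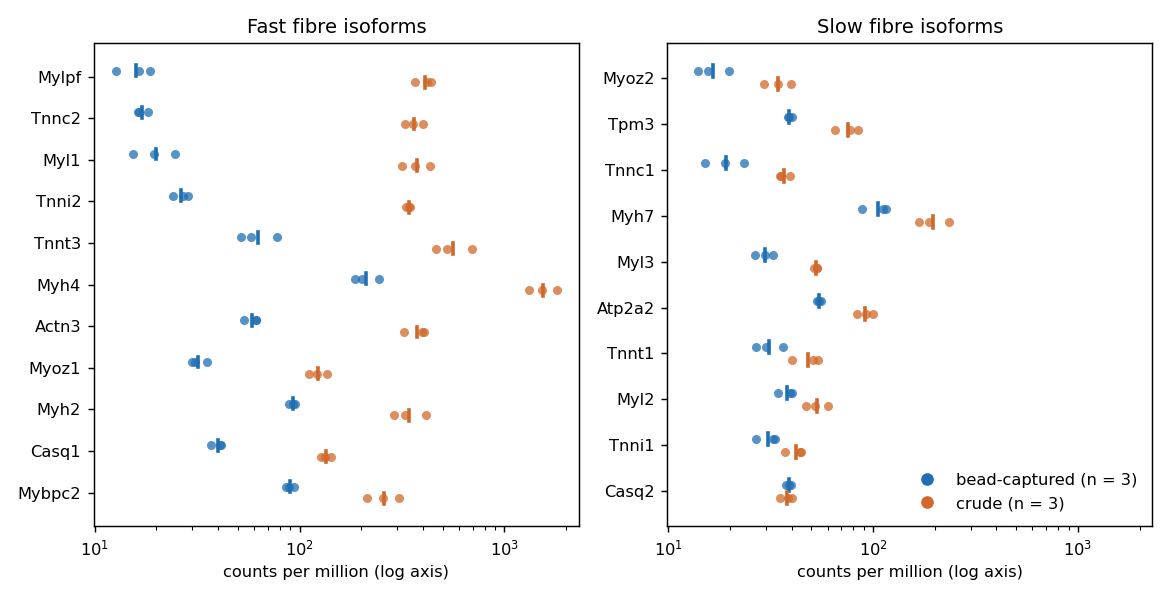
Level in CPM, scaled to effective library size (log axis), of fast and slow isoforms, with 1 point per library and a bar at the mean of each group of 3. After capture both sets lie between 16 and 211 CPM at their means, while in crude libraries most fast isoforms lie well to the right of the slow ones.

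The giant sarcomere genes were uneven among crude aliquots. Ttn, the titin spring that runs from Z-disc to M-line, had 5572, 4913 and 9187 raw counts in captured and 9936, 52393 and 11829 in crude libraries. Crude 2 stood far above the other 5 libraries, and captured 3 lay close to crude 1 in raw counts. The log2 fold change of Ttn was -2.08 ± 0.285 (SE, edgeR adjusted p = 1.21e-07), and it was -0.85 without crude 2. Neb, the thin filament ruler nebulin, had 1792, 1574 and 2158 counts against 2661, 6159 and 2628, a log2 fold change of -1.19 ± 0.159 that was -0.62 without crude 2. Acta1, a short sarcomere gene, was even among crude libraries, as its counts above show. Ttn and Neb were chosen after their values were seen.

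Membranes of calcium release lay between the contractile messages and the surface membrane. Of 25 genes of the reticulum and the T-tubule, its surface contact, 16 fell and 0 rose, with a median of -0.49. Casq1, the fast-fibre calcium store protein, had 178, 148 and 179 raw counts after capture and 566, 534 and 475 in crude libraries (-1.75 ± 0.0862, edgeR adjusted p = 8.39e-24), without overlap. Tmem38a, a counter-ion channel of the reticulum, was at -1.27 ± 0.103 and Hrc, a calcium-binding protein of its lumen, at -1.24 ± 0.105. In the dystrophin complex and costamere, which anchor the cytoskeleton to the surface membrane, 3 of 17 genes fell (median -0.21), beside 5.09% of all genes lower. They were led in p by the integrin Itgb1 at -0.56 ± 0.101, and their number was 1 without captured 1 or crude 3 and 6 without crude 2. At the neuromuscular junction 0 of 13 genes passed (median -0.08), and the member with the smallest p was Lrp4, the agrin receptor, at 0.17 (edgeR adjusted p = 0.201). In that list 2 genes had an unadjusted edgeR p under 0.05, and DESeq2 called 0.

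Messages of cytosolic energy supply fell with the contractile ones. Of 21 genes of glycolysis and glycogen breakdown 16 fell and 0 rose (median -0.61), beside 5.09% of all genes lower. Pgam2, the muscle phosphoglycerate mutase, had 52, 51 and 65 raw counts in captured and 523, 523 and 470 in crude libraries (-3.28 ± 0.109, edgeR adjusted p = 1.28e-31). Tpi1, triosephosphate isomerase, had 90, 80 and 88 against 553, 552 and 462 (-2.71 ± 0.0979, edgeR adjusted p = 5.87e-30). In both genes each crude library held several times the counts of each captured one. Mb, myoglobin, which stores oxygen in the cytosol, was at 55.5 ± 0.667 CPM against 164 ± 10.8 (SD, n = 3 each), which is a log2 difference of -1.56 ± 0.0814.

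Nuclear messages for mitochondrial proteins fell to a degree that differed among lists, and the lists also differed in level. The median raw count was 109.5 in crude and 55 in captured libraries for ATP synthase, and 75.5 and 57 for complex I. For import genes it was 73 and 68, and for the tricarboxylic acid cycle and pyruvate dehydrogenase 170 and 144. The part of the level in these falls was not tested. ATP synthase had 12 of 16 members lower (median -1.24) and complexes II and III with cytochrome c 12 of 14 (median -0.80). Complex IV had 7 of 13 lower (median -0.86) and complex I 16 of 34 (median -0.46). In each of these lists 0 were higher, and 5.09% of all genes were lower. Atp5f1b, the catalytic subunit of ATP synthase, had 90, 94 and 116 raw counts in captured and 604, 646 and 562 in crude libraries (-2.71 ± 0.1, edgeR adjusted p = 2.03e-29). Atp5f1a, its partner in the catalytic ring, had 145, 129 and 164 against 544, 492 and 478 (-1.90 ± 0.0955, edgeR adjusted p = 1.98e-23). Neither gene showed any overlap. Cox6c, a structural subunit of complex IV, was at -2.0 ± 0.161, Uqcrfs1, the iron-sulfur subunit of complex III, at -1.90 ± 0.168, and Ndufa6, an accessory subunit of complex I, at -1.37 ± 0.192. The raw counts of Ndufa6 were 39, 28 and 36 after capture and 95, 88 and 64 in crude libraries, which were close to the level of the median olfactory receptor gene in the captured group.

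In the tricarboxylic acid cycle and pyruvate dehydrogenase 16 of 23 genes fell (median -0.46), beside 5.09% of all genes lower. They were led in size by Pdk4, the kinase that switches pyruvate dehydrogenase off, at -1.35 ± 0.0991, and Pdha1, the enzyme's catalytic subunit, at -1.20 ± 0.132. In fatty acid oxidation 8 of 20 fell (median -0.31), and 5 did without crude 3. Acadm, the medium-chain acyl-CoA dehydrogenase, was at -0.77 ± 0.111. Among channels of the outer membrane and the creatine kinases, which shuttle energy between mitochondrion and myofibril, 6 of 7 fell (median -1.16). Ckm, the cytosolic form, had 87, 100 and 95 raw counts against 1067, 1017 and 866, and Ckmt2, the form of the intermembrane space, 150, 142 and 168 against 389, 377 and 356. Both fell, at -3.49 ± 0.0958 and -1.40 ± 0.0903 (edgeR adjusted p = 1.33e-35 and 8.82e-19).

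The carriers of the inner membrane differed among themselves. Slc25a4, the muscle ADP/ATP exchanger, had 88, 54 and 70 raw counts in captured and 1122, 1150 and 952 in crude libraries (-4.04 ± 0.105, edgeR adjusted p = 1.36e-36), without overlap. The next carriers were Slc25a5 at -0.69, Slc25a11 at -0.59 and Slc25a12 at -0.42. With Slc25a4 these were the only 4 of 44 to pass (median -0.08), beside 5.09% of all genes lower.

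Lists of genes that build and maintain the organelle had medians near that of all genes. Even so, 26.7% of matrix chaperones and proteases and 21.7% of fission, fusion and cristae genes were lower. The median raw count was 68 in captured and 73 in crude libraries for import genes, and 73 and 74 for mitochondrial ribosomal proteins. The median nuclear gene had 70 to 76 and 63 to 78, and counts at this level do not show that these messages were retained. Of 29 import genes 2 fell (median -0.19), with Timm23, the inner membrane channel, at -0.89 ± 0.144, and 4 did without crude 1 and 1 without crude 3. Of 15 matrix chaperones and proteases 4 fell (median -0.15), among them Hspa9, the matrix chaperone mortalin, at -0.75 ± 0.115. Of 23 genes of fission, fusion and cristae 5 fell (median -0.25), including Chchd3, a cristae organiser, at -1.06 ± 0.119. The number was 8 without crude 1, and 3 without captured 2 or crude 3. Of 72 mitochondrial ribosomal proteins 4 fell (median -0.15), and 1 or 2 did without captured 2, captured 3 or crude 1. Of 30 genes of mitochondrial DNA and RNA maintenance 1 fell (median -0.08): Lrpprc, a factor of mitochondrial mRNA stability, at -0.31 ± 0.0863 (edgeR adjusted p = 0.0162, and 0.0706 without captured 2 or 0.0818 without crude 2). Without crude 1 that list had 2. Of 23 mitochondrial aminoacyl-tRNA synthetases and translation factors 1 fell (median 0.02): the elongation factor Tufm at -0.40 ± 0.12 (edgeR adjusted p = 0.0277, and 0.0989 in DESeq2). Without captured 1, captured 2 or crude 3 the edgeR adjusted p of Tufm was 0.139, 0.0933 and 0.215. None of these 6 lists held a gene that rose. As a background rate, 5.09% of all genes tested were lower.

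**Figure D4:**
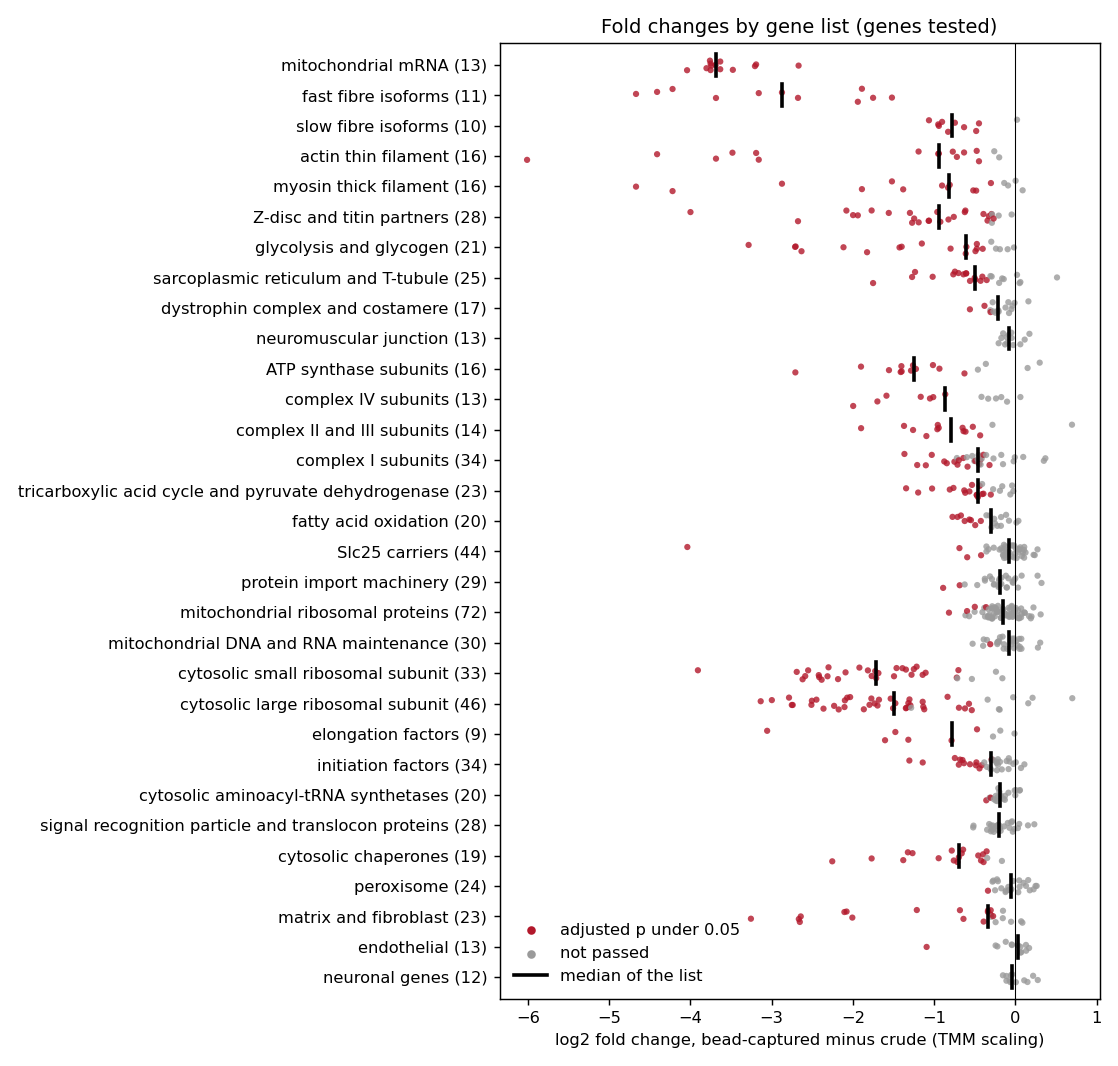
Log2 fold change (captured minus crude, TMM scaling) of each tested gene in 31 gene lists, with red points for an edgeR adjusted p under 0.05, grey points for the rest and a black bar at the median of the list. Mitochondrial mRNAs and fast isoforms lie furthest left, followed by cytosolic ribosomal proteins and ATP synthase, while import, mitochondrial ribosomal protein, neuromuscular and peroxisomal lists sit near 0.

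The cytosolic translation machinery was among the lists furthest below the median gene. Of 46 large-subunit ribosomal proteins 38 fell (median -1.49) and of 33 small-subunit proteins 29 fell (median -1.71), with 0 higher in either. Rps4x had 29, 27 and 40 raw counts in captured and 405, 490 and 436 in crude libraries (-3.91 ± 0.141, edgeR adjusted p = 5.2e-30), and Rplp0, a protein of the ribosomal stalk, 84, 83 and 95 against 766, 689 and 678 (-3.14 ± 0.094). Neither overlapped between the groups. Of 9 elongation and termination factors 6 fell (median -0.79), with Eef2, the translocase of elongation, at 220, 257 and 240 counts against 2007, 1836 and 1687 (-3.06 ± 0.083, edgeR adjusted p = 9.14e-36). Of 34 initiation factors 13 fell (median -0.29), led by Eif1 at -1.31 ± 0.131, and of 20 cytosolic aminoacyl-tRNA synthetases 2 fell (median -0.19), with Eprs at -0.30 ± 0.0877 (edgeR adjusted p = 0.0211, and 0.0577 in DESeq2). Without captured 1, captured 3 or crude 3 the edgeR adjusted p of Eprs was 0.106, 0.0579 and 0.227. The number of synthetases that fell was 0 without captured 1, 1 without captured 2, crude 2 or crude 3, and 4 without crude 1. Among all genes tested 5.09% were lower. What became of reads that match several places is not stated, so single ribosomal protein genes, which have many near-identical pseudogenes, are uncertain.

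Other cytosolic and membrane systems differed among themselves. Of 19 cytosolic chaperones 17 fell (median -0.70), with Hsp90ab1 at -2.25 ± 0.117 and Cryab, the small chaperone of the Z-disc, at -1.77 ± 0.136. Of 39 proteasome and ubiquitin genes 15 fell (median -0.28), led by Fau, which encodes a ubiquitin-like protein joined to a ribosomal protein, at -2.44 ± 0.138. In the endoplasmic reticulum 8 of 18 chaperones fell (median -0.35), with the folding enzyme Ppib at -1.26 ± 0.153, whereas 0 of 28 proteins of the signal recognition particle and translocon passed (median -0.21). Of those 28 the smallest p was that of Ssr4 at -0.52 (edgeR adjusted p = 0.0654), 9 had an unadjusted edgeR p under 0.05, and DESeq2 called 0. Of 19 lysosomal genes 8 fell (median -0.30), led by Psap at -1.37 ± 0.089, of 24 peroxisomal genes 1 fell (median -0.05), the catalase gene Cat at -0.34 ± 0.106 (edgeR adjusted p = 0.0413), and of 49 histone and chromatin genes 9 fell (median -0.14). The call of Cat was lost in DESeq2 (adjusted p = 0.15) and, in edgeR, without captured 1, captured 3, crude 2 or crude 3 (adjusted p = 0.211, 0.128, 0.106 and 0.129). Among all genes tested 5.09% were lower.

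Some structural RNAs of the cytosol were among the largest falls. The message of Acta1, at -6.01, lay between the 18S and the 28S genes given here. The 18S rRNA gene with the most counts (ENSRNOG00000068307), the RNA of the small ribosomal subunit, had 1309, 1422 and 2139 raw counts in captured and 142050, 145660 and 137485 in crude libraries. A second 18S gene (ENSRNOG00000062337) had 16, 16 and 24 against 2924, 5644 and 4607, and a 28S gene (ENSRNOG00000064743), of the large subunit, 36, 19 and 174 against 5178, 3675 and 3126. Crude libraries were far above captured ones for all 3, and captured 3 was the highest of its group for each. The log2 fold changes were -6.57 ± 0.206, -8.02 ± 0.213 and -5.81 ± 0.205 for these 18S, 18S and 28S genes, and the 28S value was -7.25 without captured 3. The less counted 18S gene and the 28S gene were chosen after their values were seen, and the libraries had been depleted of rRNA, which sets the level of what remains.

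Copies of the signal recognition particle RNA differed in which library carried them. Rn7sl1 had 13, 7 and 9 raw counts in captured and 320, 122 and 3857 in crude libraries. The Metazoa_SRP copy ENSRNOG00000067948 had 4, 9 and 9 against 336, 3341 and 198, and the Metazoa_SRP copy ENSRNOG00000053902 13, 13 and 33 against 260, 2432 and 1375. The Metazoa_SRP copies ENSRNOG00000055825 and ENSRNOG00000048993 were even among crude libraries, with 3528, 2592 and 2540 and with 3053, 3316 and 2370 counts, and had 22, 19 and 78 and 16, 13 and 94 after capture. Rn7sl1 was thus mainly in crude 3, and ENSRNOG00000067948 mainly in crude 2, while all 5 were lower in every captured library. Their log2 fold changes ran from -7.59 to -6.26. Without crude 3 that of Rn7sl1 was -4.52 instead of -7.40, and without crude 2 those of Metazoa_SRP ENSRNOG00000067948 and ENSRNOG00000053902 were -5.23 and -5.53 instead of -7.59 and -6.27. Without captured 3 those of Metazoa_SRP ENSRNOG00000055825 and ENSRNOG00000048993 were -7.21 and -7.73 instead of -6.28 and -6.26. Over the whole list of signal recognition particle, Y and vault RNAs, 12 of 33 fell and 1 rose (median -0.44), beside 5.09% and 1.26% of all genes. The rise was lost on leaving out captured 2, captured 3 or any crude library. The members are near-identical copies, so the counts of single copies are uncertain while their summed share, given above, did not overlap between the groups.

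Other small noncoding RNAs mostly did not pass, beside 5.09% of all genes lower and 1.26% higher. Rpph1, the RNA of the nuclear enzyme RNase P, had the largest fall among them. It had 33, 22 and 68 raw counts in captured and 1987, 1071 and 995 in crude libraries and a fold change of -5.12 ± 0.169 on the log2 scale (edgeR adjusted p = 9.19e-32). Among 28 RNase P RNA genes and copies 2 fell and 1 rose (median 0.12), and 1 fell without captured 2, captured 3, crude 1 or crude 2, while 0 rose without captured 2 and 2 without crude 2. Of 202 spliceosomal small nuclear RNA genes 1 fell and 1 rose (median 0.04), of 84 small nucleolar and Cajal body RNA genes 3 rose (median 0.10, and 1 without any single library but crude 3), and of 186 miRNA genes 1 rose, Mir344i (median 0.02). These calls had few counts: the U6 copy ENSRNOG00000058532 had 8, 4 and 2 against 12, 7 and 19 (edgeR adjusted p = 0.0408), SNORD115 33, 0 and 36 against 1, 2 and 10 (edgeR adjusted p = 0.0135), and Mir344i 12, 18 and 11 against 7, 5 and 2 (edgeR adjusted p = 0.0444). For SNORD115 captured 2 held no count, and the groups overlapped. The calls of U6, SNORD115 and Mir344i did not survive the loss of a library. The edgeR adjusted p of U6 was 0.127, 0.236 and 0.332 without captured 2, captured 3 and crude 3, and that of SNORD115 0.153, 0.157 and 0.076 without captured 1, captured 3 and crude 1. For Mir344i it was 0.0759, 0.241, 0.067 and 0.198 without captured 1, captured 2, crude 2 and crude 3. Of 38 tested genes in the list of nuclear-encoded 5S, 5.8S and related rRNAs, which leaves out the 18S and 28S genes above, 5 fell and 2 rose (median -0.18), with 2 falls without captured 1 and 3 without crude 3. The fall with the smallest p was that of a 5_8S_rRNA copy (ENSRNOG00000070263), with 114, 111 and 155 counts against 341, 216 and 241 (-1.17 ± 0.136, edgeR adjusted p = 1.3e-09). Both rises were 5S_rRNA copies with few counts and no overlap. ENSRNOG00000064405 had 30, 33 and 28 against 3, 5 and 4 (2.78 ± 0.409, edgeR adjusted p = 6.89e-07). ENSRNOG00000069035 had 5, 7 and 11 against 0, 0 and 0 (6.04 ± 1.13, edgeR adjusted p = 0.000102). The nuclear RNAs Malat1, Neat1, Rn7sk and Rmrp were not analysed here.

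Markers of other cells of the muscle were counted in both preparations, and only the matrix list had most of its members lower. Counts at this level do not show that RNA of these cells was present. The median raw count of macrophage and leukocyte genes was 106.5 in both groups. That of neuronal genes, which muscle does not normally transcribe, was 145.5 in captured and 137.5 in crude libraries. Of 23 matrix and fibroblast genes 16 fell (median -0.34), beside 5.09% of all genes lower. Col3a1, a fibrillar collagen, had 299, 225 and 292 raw counts in captured and 2568, 2389 and 2242 in crude libraries (-3.26 ± 0.083, edgeR adjusted p = 6.19e-37), and Gsn, gelsolin, an actin-severing protein that muscle fibres also express, 272, 263 and 335 against 1903, 1646 and 1567 (-2.67 ± 0.079). Neither overlapped. The summed level of the list was 1692 to 1755 CPM in captured and 3883 to 4010 CPM in crude libraries. Of 18 macrophage and leukocyte genes 6 fell (median -0.10), among them Cd74 at -0.71 ± 0.104, with sums of 607.8 to 619.1 against 673.6 to 696.2 CPM. Of 14 adipocyte genes 5 fell (median -0.13), led by Fabp4 at -1.09 ± 0.142, with sums of 413.0 to 423.8 against 486.3 to 520.7 CPM.

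The remaining cell types stood near the median gene. Of 13 endothelial genes 1 fell (Fabp4, shared with adipocytes, and 2 without crude 2), of 9 erythroid genes 1 (Hba-a2 at -0.58 ± 0.0997), of 10 satellite cell genes 1 (Sdc4 at -0.65 ± 0.136), of 13 smooth muscle and pericyte genes 2 (among them Des, which skeletal muscle also makes) and of 12 Schwann cell genes 0. Their medians were 0.04, 0.09, -0.01, -0.12 and -0.15. Among the Schwann cell genes the smallest p was that of Mbp at -0.28 (edgeR adjusted p = 0.0624), 3 had an unadjusted edgeR p under 0.05, and DESeq2 called 0. The summed endothelial level was 801.4 to 831.4 CPM after capture and 812.7 to 888.7 CPM in crude libraries, so these ranges overlapped. Beside these counts, 5.09% of all genes tested were lower. No list of another cell type held a gene that rose, and the part of these cells in the other results was not tested.

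Genes that muscle does not normally transcribe were counted too, and 5 of 1115 olfactory receptor genes were at 0 in all 6 libraries. Alb, the albumin gene of liver, had 129, 131 and 148 raw counts in captured and 128, 122 and 114 in crude libraries, and a log2 fold change of 0.05 that did not pass; it was picked as a familiar liver gene after its values were seen. Of 18 liver and pancreas genes 1 fell (median 0.09), Tf at -0.34 ± 0.0872 (edgeR adjusted p = 0.00712, and 0.109 without captured 3), and of 12 neuronal genes 0 passed (median -0.05), with Snap25 at 0.28 (edgeR adjusted p = 0.281), 0 of them at an unadjusted edgeR p under 0.05 and 0 in DESeq2. Of 1097 olfactory receptor genes 45 rose and 0 fell (median 0.23), and of 173 vomeronasal and taste receptor genes 2 rose and 0 fell (median 0.17). Among all genes tested 1.26% were higher and 5.09% lower. DESeq2 called 12 of the 1097 and 1 of the 173. In edgeR the olfactory rises numbered 16 without captured 1 and 23 without crude 1, and the vomeronasal and taste rises 0 without captured 1, 5 without captured 2, 12 without crude 2 and 4 without crude 3. Against the scaling on olfactory receptor genes themselves 57 genes of any kind were higher.

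Rises were small. Of the 335 genes that rose, 232 had a mean of at least 50 counts and 45 are olfactory receptors. Of the same 335, 172 have no name or only a clone or locus identifier, and 163 have a gene symbol. Among the genes that fell these numbers were 82 and 1267, and the share among all genes tested was not counted. The largest rise among called genes with a gene symbol, at least 50 counts on average and no overlap was that of Olr462, with 83, 77 and 94 raw counts in captured and 39, 45 and 54 in crude libraries (0.76 ± 0.169, edgeR adjusted p = 0.00119). Pcdhb9, a cell adhesion protein of the protocadherin beta cluster, had 144, 120 and 142 against 92, 83 and 65 (0.65 ± 0.127, edgeR adjusted p = 0.000184). Among the 10 largest were also Tm4sf20 at 0.70, Gja10 at 0.67, Olr1186 and Olr1597 at 0.61, Apex2l1 at 0.61, and Skint8 and Nlrp10 at 0.59. The edgeR adjusted p of these 7 lay between 0.00246 (Nlrp10) and 0.0443 (Skint8), and all but that of Nlrp10 were lost when some library was left out. Without captured 1 the edgeR adjusted p was 0.149 for Tm4sf20, 0.187 for Gja10 and 0.302 for Olr1597. Without captured 3 it was 0.115 for Olr1186, 0.0777 for Apex2l1 and 0.169 for Skint8. Other losses came without captured 2 (Tm4sf20 0.0595, Gja10 0.0629, Olr1186 0.0667, Skint8 0.112), crude 1 (Olr1186 0.0703, Olr1597 0.0987, Skint8 0.125), crude 2 (Gja10 0.0954) and crude 3 (Tm4sf20 0.0524, Olr1186 0.0907, Apex2l1 0.082, Skint8 0.138).

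The size of a difference went with the level of the gene in crude mitochondria. Nuclear genes were binned by their level in crude library 1, and the difference was taken from the other 2 crude libraries, which that level did not use. Among the 58 genes over 320 CPM the median difference was -0.305, with quartiles of -3.268 and 0.195, and 46.6% lay below -1. Among the 200 genes between 160 and 320 CPM the median was -0.016 and 11.5% lay below -1. In the 6 bins under 160 CPM the medians were -0.013 to 0.073, and 0.383% to 2.95% lay below -1. Captured libraries had fewer genes at high levels, with 89 to 90 nuclear genes over 200 CPM against 129 to 132 in crude libraries. The ratio of the 95th to the 5th percentile of CPM overlapped between the groups, at 28.9, 33.2 and 29.6 in captured and 35.5, 31.7 and 33.7 in crude libraries. The 100 most counted nuclear genes took 6.01%, 5.67% and 5.84% of nuclear counts after capture and 9.62%, 12.5% and 10.8% in crude libraries.

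**Figure D5:**
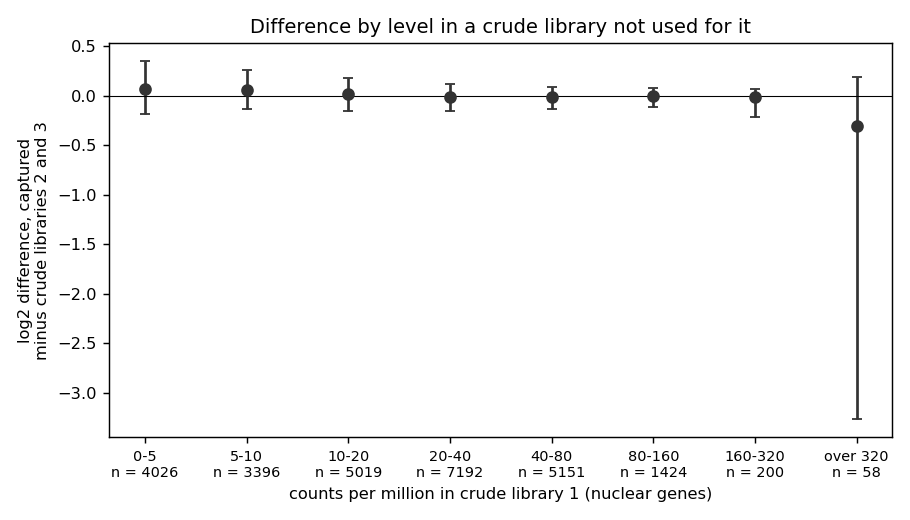
Median (point) and quartiles (bars) of the log2 difference, captured minus crude libraries 2 and 3, for nuclear genes binned by their CPM in crude library 1. Medians lie near 0 in all bins up to 320 CPM, and the bin above it has a median of -0.305 and a lower quartile of -3.268.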

How the data were processed

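The authors deposited a table of raw read counts, whole numbers per Ensembl gene, for 12 RNase A treated mitochondrial preparations. Per the submitters' processing notes, FastQC 0.74, cutadapt 4.6, STAR 2.7.11a and HTSeq were used with the build mRatBN7.2. Not given in the sources used here are the annotation release, the strand setting and what was done with reads matching several places. Per the labels' protocols, RNA was treated with DNase I on the column and made into ribosomal RNA-depleted libraries. Libraries were grouped by title, and 0 columns of other samples were present.

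Counts were tested by the quasi-likelihood test of edgeR 4.0.16 (R 4.3.3) after TMM scaling, in 1 model over all 12 libraries and 4 groups. The filter filterByExpr at a minimum count of 10 passed 26483 of 30560 genes (86.7%), and p-values were adjusted by Benjamini-Hochberg over all of them. The common biological coefficient of variation was 0.0644. The SE of a fold change comes from dispersions moderated over all genes. CPM are scaled to effective library sizes, whose TMM factors were 1.12 to 1.21 for captured and 0.525 to 0.679 for crude libraries. Shares were compared by two-sided exact permutation tests with SciPy 1.17.1. The procedure was tested on simulated data.

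The members compared, the 55 gene lists and the naming rule were chosen with earlier results of these data known. The rule took the 10 highest and 10 lowest fold changes among called genes with a mean of at least 50 counts, a proper symbol and separate CPM ranges. It added up to 3 members per list with the smallest p among those called beyond 1 on the log2 scale, or else the 1 member with the smallest p. It also took the 12 most counted genes of each group, the 13 mitochondrial mRNAs, Rpph1 and Rn7sl1, and allowed every member of a family or isoform list to be given where a result turns on it. Some genes that the rule took are left out here. Genes were sorted into classes by deposited name and, where a symbol matched (17175 of 21599), by the biotype in a RefSeq table of assembly GRCr8. That build differs from the authors', so no coordinates, lengths or sequences were used. Alternatives were other scalings and filters, DESeq2 1.42.0, only the 6 libraries compared, a replicate block, and leaving out each library in turn.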

Additional observations from a re-analysis of the deposited data

How the results depend on the processing

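The number of genes called higher and lower, 335 and 1349, depended on the scaling: 25094 and 189 by library size, 57 and 4478 on olfactory receptor genes, and 26435 and 14 on the 13 mitochondrial mRNAs. With only the 6 libraries compared 170 genes were higher, and with DESeq2 139. Leaving out each library in turn gave 145 to 506 higher genes and 1053 to 1460 lower genes. With the mean of the mitochondrial share differing by -43.0 points, leaving out a library gave -47.1 to -40.8 points. Same-numbered libraries did not deviate together (correlations of -0.094, -0.102 and 0.015), so the numbers do not pair them, and a replicate block gave 324 higher and 1314 lower genes, of which 310 and 1306 were shared with the unblocked fit. Scaling by library size moved all genes nearly alike, the median by 1.024, so the place of a gene relative to that median was set in advance. Named genes that turned positive yet stayed under that median were Mdh2 0.004, Hmgn1 0.002, Timm23 0.14, Mrps21 0.20, Acadm 0.26, Hspa9 0.28, Cd74 0.32, Sdc4 0.38, Hba-a2 0.44, Itgb1 0.48, Ssr4 0.50, Tufm 0.62, Tf 0.69, Cat 0.69, Lrpprc 0.72, Eprs 0.73 and Mbp 0.74. Differences in share of the mitochondrial mRNAs that lay near 0 changed sign. Leaving out a library gave -0.399 (captured 2) to 0.32 points (captured 3) for Mt-cyb, which was also above 0 without crude 1, at 0.144. It gave -0.309 to 0.106 (crude 2) for Mt-nd4, -0.171 to 0.00537 (captured 1) for Mt-co2, -0.0246 to 0.0153 (crude 2) for Mt-nd3 and -0.0193 (captured 3) to 0.176 for Mt-atp6. As shares of all mitochondrial counts, Mt-cyb, Mt-nd4, Mt-co3, Mt-co2 and Mt-nd3 turned to 1.93, 1.49, 1.04, 0.659 and 0.09 points. The cause of these changes was not tested, apart from the shift of the median that the scalings set by construction. Depth limits genes near the level of the median olfactory receptor gene, 30 to 44 counts.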

Other observations

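Some of the strongest falls lay outside every gene list and were picked after their values were seen. Fth1, the heavy chain of the iron store ferritin, had 72, 74 and 80 raw counts in captured and 1085, 1045 and 873 in crude libraries, a log2 fold change of -3.84 ± 0.0964 (SE, edgeR adjusted p = 3.24e-37). Tpt1, the translationally controlled tumour protein, had 86, 87 and 106 counts against 892, 983 and 832 (-3.39 ± 0.0995). The groups did not overlap in either gene. Vim, the intermediate filament of mesenchymal cells, was at -3.14 ± 0.0936 and Actb, the cytoskeletal actin, at -2.98 ± 0.104. Txnip, a thioredoxin inhibitor, was at -2.39 ± 0.0971, and Tsc22d3, a glucocorticoid-induced gene, at -2.23 ± 0.125. Pabpc1, the cytosolic poly(A)-binding protein, was at -2.17 ± 0.106 and S100a6, a calcium-binding protein, at -2.14 ± 0.175.

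Among 17 protocadherin beta genes, neighbours in 1 cluster with similar sequences, 4 rose and 0 fell, beside 1.26% of all genes higher, a family singled out after its values were seen. They were Pcdhb9 at 0.65 ± 0.127, Pcdhb11 at 0.64 ± 0.156, Pcdhb20 at 0.47 ± 0.142 (edgeR adjusted p = 0.0307) and Pcdhb7 at 0.41 ± 0.131 (edgeR adjusted p = 0.0433). Pcdhb1 was the only member below 0, at -0.04.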
